A study of Mus musculus with 6 samples.

Results

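The nuclei described here are glutamatergic nuclei of the mouse frontal lobe chosen for UMIs (unique molecular identifiers, 1 per captured RNA molecule) of Ntng1 together with Cdhr1, Scube1, Slc38a3 or Rspo3, a combination proposed to mark mitral and tufted-like projection neurons. A barcode was kept when it had at least 500 detected genes and at most 5% of its UMIs from mitochondrial genes. A kept nucleus was a member when it had at least 2 UMIs of Ntng1, at least 2 UMIs summed over Cdhr1, Scube1, Slc38a3 and Rspo3, and at least 1 UMI of the vesicular glutamate transporters Slc17a7 and Slc17a6. It could have at most 1 UMI of each of the sums Gad1 with Gad2, Igfn1 with Abi3bp, and Ccn2 with Nxph4. Of 39752 barcodes, 30840 were kept, and 1109 of these (3.60%) were members. The 13 genes of this gate were measured in the same nuclei, so their levels in members are a description.

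The series holds 6 libraries of single nuclei, 1 per mouse. All 6 mice carried Tg-SwDI, a transgene of human amyloid precursor protein with the Swedish, Dutch and Iowa mutations, known to be driven in neurons by the Thy1 promoter. The 3 mice of 1 group were wild type for Trem2 (SwDI/TWT) and the 3 of the other were Trem2 knockouts (SwDI/TKO), and the labels give no age, sex or knockout allele. TREM2 is a receptor of microglia. No mouse without the transgene was analysed here, so nothing below separates the transgene from its absence.

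Mitral and tufted cells are the output neurons of the olfactory bulb and use glutamate as their transmitter. They are known for the T-box transcription factors Eomes and Tbx21, the cadherin Cdhr1, the synaptic protein gene Doc2g and the secreted matrix protein reelin (Reln). Netrin-G1, the product of Ntng1, is an axonal membrane protein that binds the postsynaptic protein NGL-1 (Lrrc4c), and it is found on several kinds of projection neuron. Scube1 encodes a secreted and membrane-bound glycoprotein, Rspo3 an R-spondin that amplifies Wnt signalling through Lgr receptors, and Slc38a3 a glutamine transporter.

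Values by library are given below in the order of replicates 1, 2 and 3 of a genotype. The wild-type mice gave 67, 124 and 287 members, and the knockout mice 424, 54 and 153. Knockout replicate 1 stood apart. It was counted with Cell Ranger 7.0.0 where the other 5 libraries were counted with 6.1.2, and its members had a median of 10144.5 UMIs, against 2723 to 4725 in the other libraries. No source used here says whether intronic reads were counted, and software, depth and this mouse cannot be told apart. Barcodes per library ranged from 5220 to 8095, where the submitters state 5700 to 8100 nuclei. Of 39552 distinct barcode sequences, 200 occurred in more than 1 library. Of the members, 7 had such a barcode, and none had it as a member in both libraries. Over all kept nuclei, Trem2 itself had 205, 164 and 135 UMIs in the wild-type mice, or 20.4, 12.3 and 9.43 CPM (UMIs scaled to the library's total). The knockout mice had 147, 116 and 71 UMIs, or 2.92, 11.2 and 5.76 CPM. The ranges overlap. The labels do not say which part of Trem2 was deleted, and UMIs at the end of the transcript check a deletion only if it reaches them. Members held 8 Trem2 UMIs in all.

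The four-marker sum was carried mainly by Scube1. Scube1 gave 63.6% of the UMIs of the sum and was detected in 970 of 1109 members (87.5%). Rspo3 gave 25.2% of the UMIs, Slc38a3 gave 8.28%, and Cdhr1 gave 2.96%. Without Scube1 in the sum, 529 members (47.7%) would have failed the gate, and without Cdhr1 only 14 (1.26%). Cdhr1 lies on chromosome 14 (mm10, chr14:37077857-37098347, minus strand), Scube1 on chromosome 15 (chr15:83604999-83725021, minus strand) and Ntng1 on chromosome 3 (chr3:109780040-110144011, minus strand), all annotated as protein-coding genes.

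The gene that gives the proposed name was thus absent from most members. Cdhr1 had a UMI in 133 of 1109 members (11.99%). Summed over a library's members, its level was 91.4, 35.6 and 33.0 CPM in the wild-type mice, and the knockout mice had 8.42, 80.8 and 70.1 CPM. The level was lowest in knockout replicate 1 and highest in wild-type replicate 1 and knockout replicate 2. The share of nuclei with a Cdhr1 UMI was 2.28% in other glutamatergic nuclei and 0.547% in nuclei with GABA-synthesis genes, whose median depth was 2056 to 7223 UMIs by library. Cdhr1 counts toward the gate, so a difference from this background is built into the choice of members.

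Of the mitral and tufted markers that the gate did not use, Eomes, Tbx21, Lhx1 and Sncg were near 0. Eomes had a UMI in 12 of 1109 members (1.08%) and Tbx21 in 5 (0.451%). Lhx1, a homeobox gene of mitral cells, was found in 0.0902% of members, and Sncg had no UMI, which allows a share of up to 0.271% of nuclei with a UMI. The 12 Eomes-positive members were uneven across libraries. Their share was 10.4%, 0% and 0.348% of members in the wild-type mice, and the knockout mice had 0%, 5.56% and 0.654%. In all, 8 of the 16 mitral and tufted genes searched were in under 1% of members and 6 were in at least 10%: Reln, Uchl1, Tbr1, Nrp1, Cdhr1 and Doc2g. The summed level of the 16 genes was 682, 443 and 379 CPM in wild-type members and 391, 735 and 602 CPM in knockout members. Other glutamatergic nuclei had 352, 304 and 286 CPM in the wild-type mice and 239, 354 and 383 CPM in the knockout mice. The sum includes Cdhr1, a gate gene. The list was thus split. Eomes, Tbx21, Lhx1 and Sncg did not bear out the label of mitral and tufted-like neurons. Reln and the summed level of the list were higher in members than in other glutamatergic nuclei in every library. The list as a whole did not settle the label. The nuclei are called here Ntng1 Scube1 glutamatergic nuclei.

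Either vesicular glutamate transporter was required by the gate. Slc17a7, the vesicular glutamate transporter typical of cortex, was detected in 98.5% of members, and Slc17a6, the transporter typical of thalamus, in 12.4%. Of 11 thalamic markers outside the gate, 8 were in a smaller share of members than of other glutamatergic nuclei, with Tcf7l2 in 1.62% against 2.13% and Prkcd in 0.541% against 0.955%. The exceptions were Shox2, in 1 member, Gbx2, with no UMI in either class, and Rora, a nuclear receptor, in 61.2% against 35.7%. Rora was in 99.3% of the members of knockout replicate 1 and in 16.4% to 64.7% of those of the other libraries. In other glutamatergic nuclei its share was 90.4% in knockout replicate 1 and 8.57% to 20.2% elsewhere, below that of members in every library. Near-projecting and upper-layer lists were split. Of 6 near-projecting genes, Tshz2 was in 53.9% of members against 14.8% and Sla2 in 1.17% against 0.492%, and the other 4 were in a smaller share of members. Of 8 upper-layer genes, Rorb was in 49.5% of members against 17.7% and Cux1 in 35.4% against 31.1%, and the other 6, Cux2 among them (12.2% against 18.1%), were in a smaller share of members. Of 10 genes listed for anterior olfactory and piriform cortex, 6 were in a larger share of members, such as Lmo3 in 55.3% against 34.8%, and 4 in a smaller one. These shares pool the 6 libraries, with 424 of the 1109 members from knockout replicate 1, and were not adjusted for depth. Cux1 was in a smaller share of members in wild-type replicates 2 (17.7% against 21.3%) and 3 (15.7% against 20.0%). The same held in knockout replicate 3 (21.6% against 24.3%), and its share was larger in the other libraries. Ntng2, 1 of the 6 olfactory-cortex genes, was in 35.4% of members of knockout replicate 1 and at most 1.39% elsewhere. The members had more UMIs than other glutamatergic nuclei in every library but wild-type replicate 3, where the medians were 2723 and 2931.5.

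**Figure D1:**
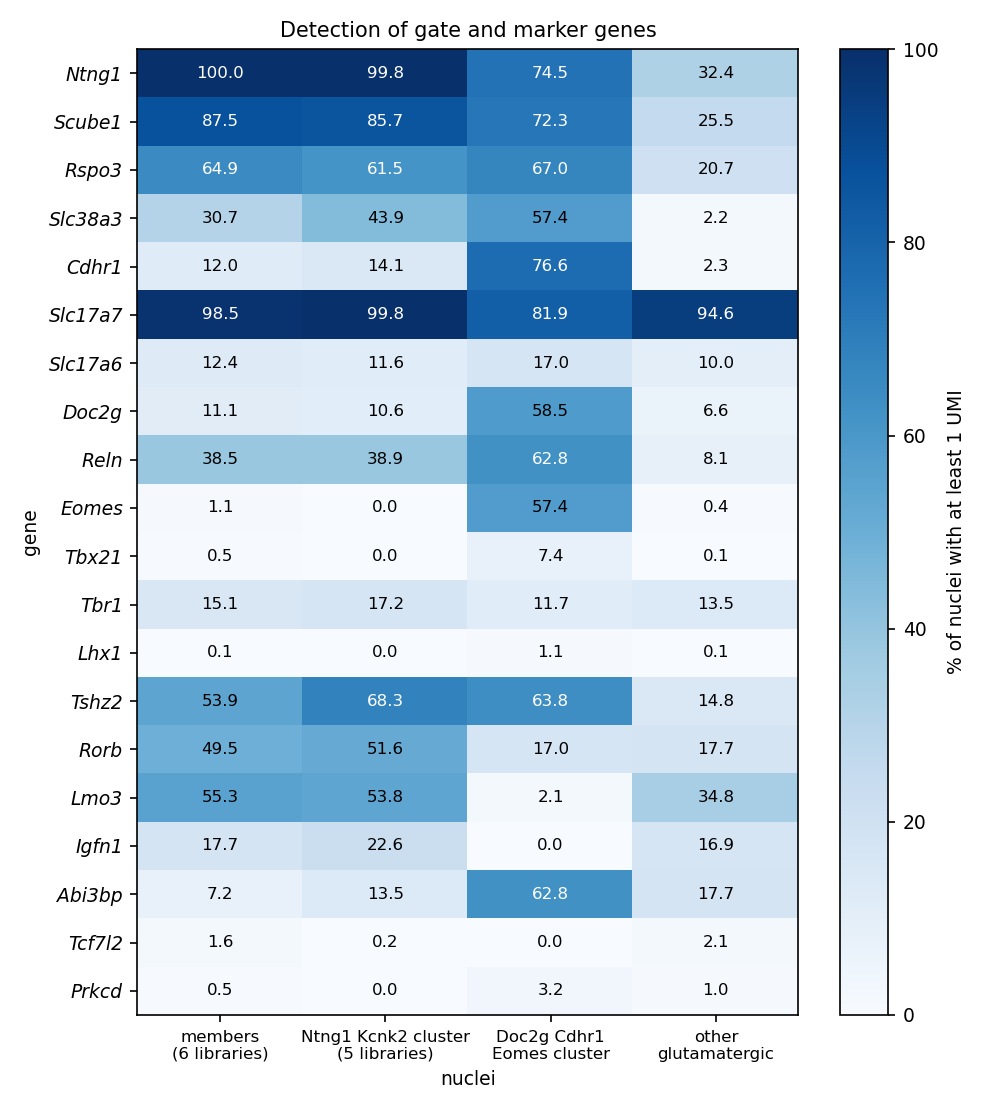
Share of nuclei with at least 1 UMI of each gene (rows), in percent, in members of all 6 libraries, in the Ntng1 Kcnk2 cluster of 5 libraries, in the Doc2g Cdhr1 Eomes cluster of all 6 and in other glutamatergic nuclei. Eomes was in 57.4% of the Doc2g Cdhr1 Eomes cluster and in 1.08% of members.

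Nuclei with mitral and tufted markers did exist in these libraries, and most were not members. Clustering of all kept nuclei without the 13 gate genes gave 33 clusters. The cluster with the highest Eomes level held 94 nuclei and was led by Doc2g, Cdhr1, Rasa4, Rab37, Coro6 and Rspo3, with Eomes among its leading genes, and is called mitral and tufted-like. Cdhr1 was in 76.6% of its nuclei, Eomes in 57.4%, Doc2g in 58.5%, Reln in 62.8% and Tbx21 in 7.45%. It held 54 of the 85 nuclei with an Eomes UMI. Only 23 of its 94 nuclei (24.5%) were members, which is 2.07% of members. The limit on Igfn1 with Abi3bp removed 45 of the 94, 31 of them by that limit alone, and Abi3bp was in 62.8% of the cluster. Fewer than 2 Ntng1 UMIs were found in 33 of the 94, of which 3 failed by that limit alone.

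The mitral and tufted-like cluster was uneven across mice. It held 38, 1 and 3 nuclei of the wild-type mice, which is 0.850%, 0.0192% and 0.0569% of their kept nuclei. Of the knockout mice it held 0, 43 and 9 nuclei, or 0%, 1.03% and 0.221%. The 2 groups overlapped. Knockout replicate 1 formed clusters of its own, so its 0 in this cluster sets no limit on nuclei of this kind in that mouse, and 1 of its 7666 kept nuclei had an Eomes UMI. Wild-type replicate 1 and knockout replicate 2 together held most of these nuclei.

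Members fell mainly into another cluster. Because knockout replicate 1 formed clusters of its own, the 8153 glutamatergic nuclei of the other 5 libraries were also clustered alone, again without the gate's genes, a step chosen after seeing the data. Of 24 clusters, 1 held 483 nuclei, 359 of which were members. That is 74.3% of the cluster and 52.4% of the 685 members of these libraries. Its leading genes were Ntng1, Kcnk2, Thsd7a, Endou, Scube1, Golim4, Trmt9b, Slc38a3, Ptchd4, Serpini1, Robo2 and Ppm1l, and it is called the Ntng1 Kcnk2 cluster. Kcnk2 encodes the potassium channel TREK-1, Robo2 a Slit receptor of growing axons and Serpini1 the secreted protease inhibitor neuroserpin. No nucleus of the cluster had a UMI of Eomes or Tbx21, which allows a share of up to 0.621% for each.

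In the Ntng1 Kcnk2 cluster the gene levels were steep. Kcnk2 stood at 1350, 1721 and 1517 CPM in the wild-type mice and at 1300 CPM in knockout replicate 3. Other glutamatergic nuclei outside the cluster had 236, 292, 232 and 217 CPM in the same libraries, and they are the comparison for Endou and Serpini1 too. Endou, which encodes an endoribonuclease, stood at 169, 165, 183 and 251 CPM, against 0.753, 1.58, 2.01 and 3.49 CPM. Serpini1 stood at 651, 580, 556 and 598 CPM, against 118, 86.8, 95.4 and 105 CPM. Knockout replicate 2 had 1 nucleus in the cluster and no value. These levels chose the cluster and carry no test.

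Members outside that cluster were unlike those inside it. Endou was at 3.89, 27.6, 17.8 and 15.2 CPM in members outside the cluster in the same 4 libraries, and at 220, 172, 209 and 256 CPM in members inside it. Endou is a leading gene of the cluster, so this contrast is built into how the cluster was drawn and carries no test. Ntng1 itself was at 1477, 1299, 1528 and 1605 CPM outside and at 5246, 6388, 6883 and 5100 CPM inside. The gate therefore took in nuclei of high and of low Ntng1 level. Among the other clusters, 57 members lay in a cluster led by Rorb, 51 in one led by Cartpt that also had Igfn1 and Abi3bp among its leading genes, and 36 in one led by Rxfp1.

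The make-up of members differed between mice. Members inside the Ntng1 Kcnk2 cluster numbered 10 of 67 in wild-type replicate 1 (14.9%), 57 of 124 in wild-type replicate 2 (46.0%) and 189 of 287 in wild-type replicate 3 (65.9%). In knockout, 1 of 54 (1.85%) lay inside it in replicate 2 and 102 of 153 (66.7%) in replicate 3. Wild-type replicate 1 and knockout replicate 2, the libraries with most mitral and tufted-like nuclei, had the fewest. This cluster made up 0.336%, 1.67% and 4.82% of kept nuclei in the wild-type mice, 0.0240% in knockout replicate 2 and 3.10% in knockout replicate 3.

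Knockout replicate 1 had a member-rich cluster of its own. In the clustering of all nuclei, 183 of its 424 members fell in a cluster of 270 nuclei, 265 of them from this library. A further 153 fell in a cluster of 1261 nuclei led by Dpp10 and Kcnq5, and 50 in one led by Tafa2 and Epha6. The first of these clusters and the Ntng1 Kcnk2 cluster of the other libraries shared 27 of their 50 top genes by fold, among 32272 genes outside the gate. Each was the cluster with most members of its libraries, and the overlap of other pairs is not given here. The shared genes included Kcnk2, Thsd7a, Golim4, Ptchd4, Robo2, Cntn5, Tshz2, Cpne4 and Reln. Over all nuclei, the cluster that held most members held 457 of 1109 (41.2%), but only 8 of those of knockout replicate 1.

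Several genes outside the gate were higher in members than in other glutamatergic nuclei of the same library in all 6 libraries. The level was compared as the log2 ratio of CPM with 50 CPM added to each side, which understates the difference of low genes. Of 689 genes with at least 100 CPM in the members of every library, 142 were higher in members in every library and 66 were lower, and 8 of the former had a mean log2 ratio of at least 1. Members were chosen on these nuclei, so no test was made. The leading genes were not all particular to members. In the mitral and tufted-like cluster of wild-type replicate 1 and knockout replicate 2, Reln stood at 625 and 684 CPM, above members of the same libraries. Ppfibp1 stood there at 424 and 564 CPM and Cpne4 at 697 and 716 CPM. Lower levels there were those of Kcnk2 (259 and 165 CPM), Cntn5 (180 and 184 CPM) and Serpini1 (79.0 and 69.7 CPM).

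Reln had the largest mean log2 ratio of the genes that met the level rule, 1.31 ± 0.22 (SD, n = 6). It stood at 120, 127 and 136 CPM in wild-type members and 244, 173 and 175 CPM in knockout members. Other glutamatergic nuclei had 27.3, 28.7 and 40.5 CPM in the wild-type mice and 58.5, 31.0 and 24.3 CPM in the knockout mice. All 6 members' values lay above all 6 of the other class. The members that carried Reln differed between libraries. In wild-type replicate 1 it stood at 36.7 CPM in the 10 members inside the Ntng1 Kcnk2 cluster and at 128 CPM outside. Wild-type replicates 2 and 3 had 280 and 213 CPM inside and 43.3 and 40.6 CPM outside. Knockout replicate 3 had 197 CPM inside and 140 CPM outside, and knockout replicate 2 had 172 CPM outside. Kcnk2 followed at 1.24 ± 0.67, with 503, 1045 and 1093 CPM in wild-type members and 331, 212 and 960 CPM in knockout members. The lowest was knockout replicate 2, where the log2 ratio was 0.09.

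Membrane proteins were among the others. Ptchd4, a patched-domain gene, had a mean log2 ratio of 1.21 ± 0.26, and Robo2, the Slit receptor, one of 1.11 ± 0.43. Cntn5, a contactin of the immunoglobulin family, stood at 1.04 ± 0.44. Ptprd, a receptor phosphatase that organises synapses, stood at 0.90 ± 0.25, and Fat3, a large cadherin of dendrites, at 0.74 ± 0.19.

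Transcription factors and calcium sensors were also among the 20 leading genes. Tshz2, a zinc-finger factor of near-projecting neurons, had a mean log2 ratio of 1.06 ± 0.52 and Rorb, a nuclear receptor of layer 4, one of 0.98 ± 0.46. Cpne4, a calcium-dependent membrane-binding copine, stood at 1.04 ± 0.29 and Ppfibp1, a liprin-binding scaffold, at 1.06 ± 0.23. Elavl2, a neuronal RNA-binding protein, stood at 0.77 ± 0.36 and Rims1, a scaffold of the presynaptic release site, at 0.65 ± 0.33. Serpini1, Pid1, A830036E02Rik, Limch1, Atp11b, Asph and Asap1 completed the 20, with means from 0.63 to 0.85. Knockout replicate 2, with 1 member in the Ntng1 Kcnk2 cluster, gave the smallest ratio for Kcnk2, Robo2, Tshz2, Cntn5, Rorb and Serpini1.

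After each nucleus was thinned to 2000 UMIs, 18 of the 20 genes were higher in every library. The exceptions were Rorb, higher in 3 of 6 libraries with a mean log2 ratio of 0.47, and Kcnk2, higher in 5 of 6. Against all other kept nuclei, 16 of the 20 were higher in every library.

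**Figure D2:**
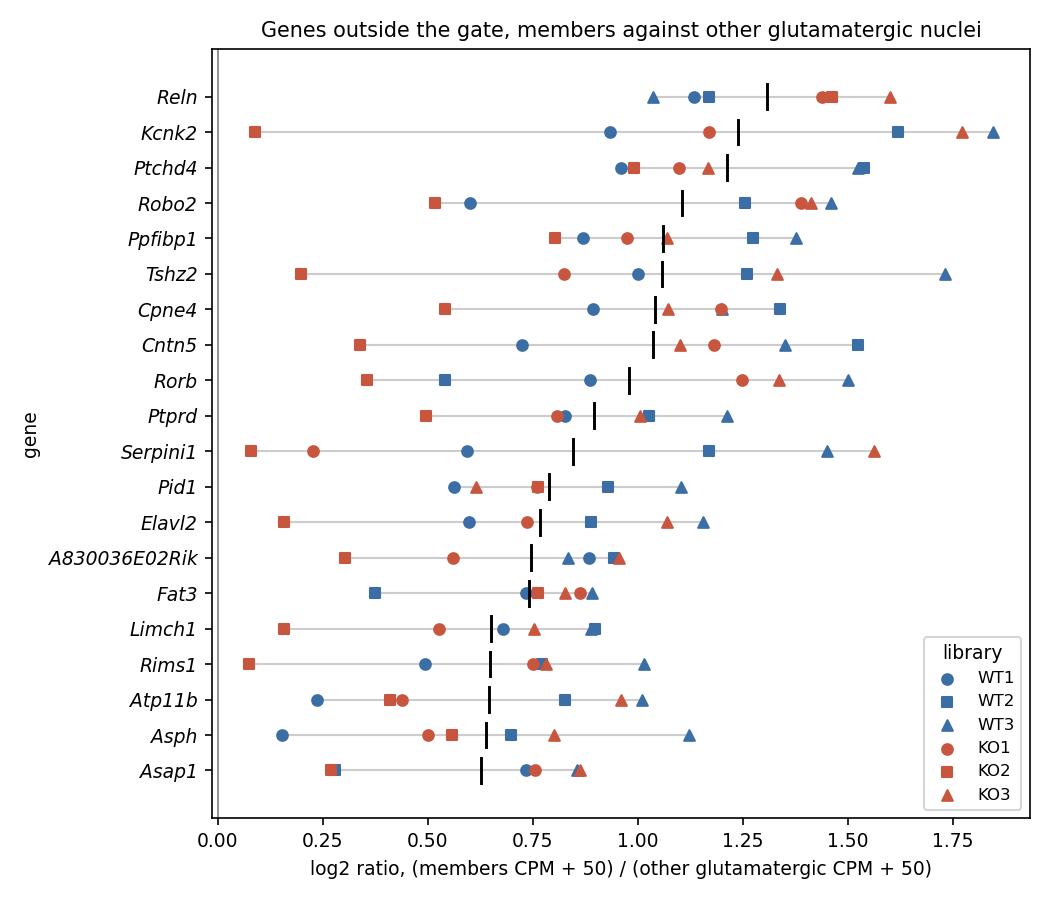
Log2 ratio of CPM in members over CPM in other glutamatergic nuclei of the same library (x axis, 50 CPM added to each) for the 20 leading genes outside the gate (rows). Points are libraries (blue, wild type; red, knockout), black bars are means over 6 libraries, and every point lies above 0; knockout replicate 2 is lowest for Kcnk2 at 0.09.

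The share of kept nuclei that were members did not differ between the genotypes beyond the spread between mice. It was 1.499%, 2.39% and 5.44% in the wild-type mice, and 5.53%, 1.30% and 3.76% in the knockout mice. Each group held a low and a high mouse, and the groups overlapped throughout. The means were 3.11% ± 2.07 (SD, n = 3) and 3.53% ± 2.13 (SD, n = 3), a difference of 0.420 percentage points (exact two-sided permutation test, p = 0.9; 20 assignments, smallest possible p 0.1). With 3 mice a group this test cannot fall below 0.05.

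The gate counts UMIs, and the share was also taken at 1 fixed depth. After thinning each nucleus to 2000 UMIs, with shallower nuclei left out, the share was 1.32%, 1.84% and 4.72% in the wild-type mice, and 1.58%, 0.765% and 3.71% in the knockout mice. Knockout replicate 1 fell from 5.53% to 1.58%, and the difference changed sign to -0.612 percentage points (exact permutation test, p = 0.6). Without knockout replicate 1 the difference was -0.581 percentage points (p = 0.8 in an exact test over 10 assignments), and without wild-type replicate 1 it was -0.385 (p = 1.0 in the same test). As a share of glutamatergic nuclei, members were 5.19%, 5.89% and 13.0% in the wild-type mice, and 12.01%, 4.31% and 11.8% in the knockout mice.

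**Figure D3:**
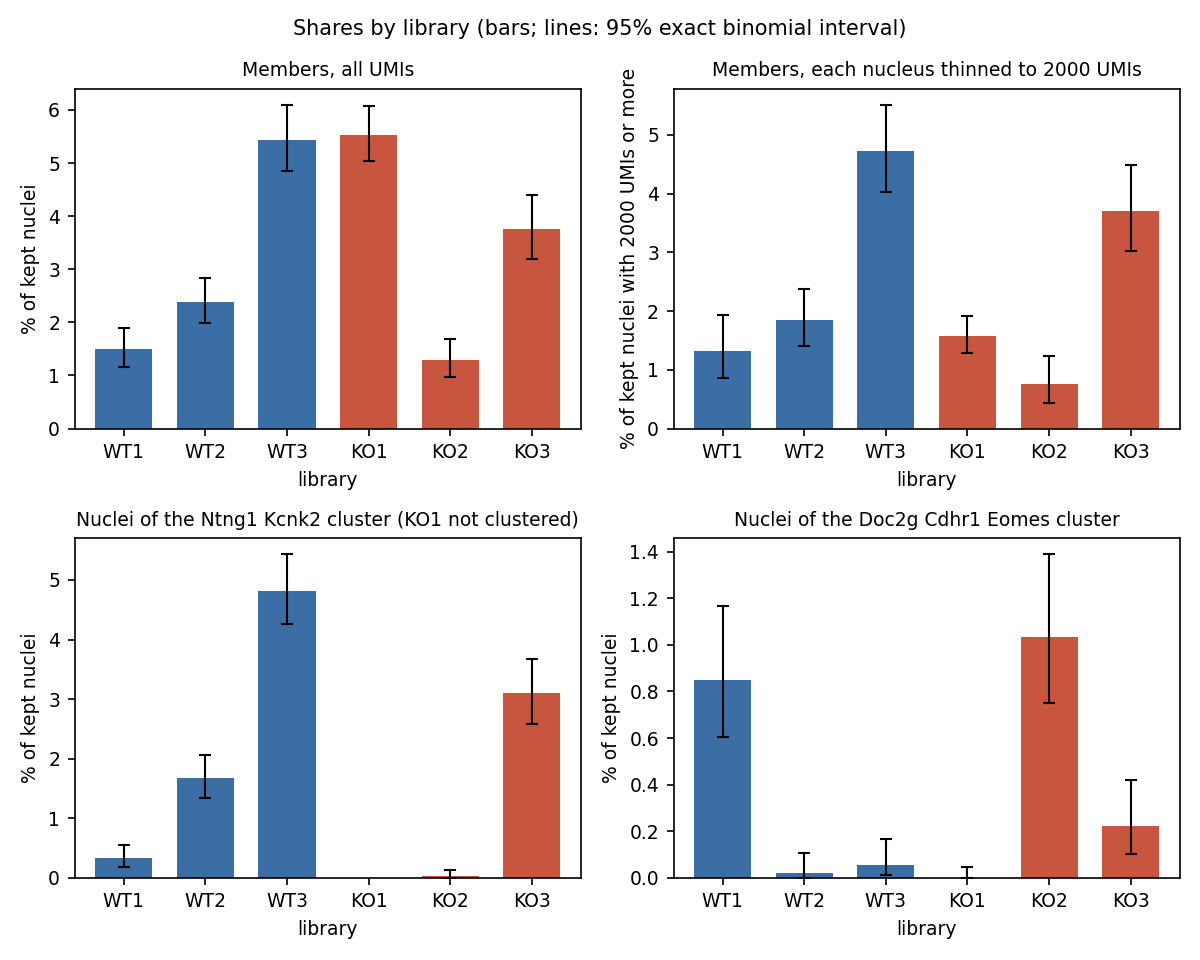
Percent of kept nuclei by library (bars; WT, wild type in blue; KO, knockout in red) with exact 95% binomial intervals, which cover counting error only, for members, for members after thinning to 2000 UMIs (among nuclei of at least that depth), for the Ntng1 Kcnk2 cluster and for the Doc2g Cdhr1 Eomes cluster. Knockout replicate 1 drops from 5.53% to 1.58% after thinning and was not part of the clustering of 5 libraries.

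The values near the gate's limits were as follows. Of the members, 155 had exactly 2 Ntng1 UMIs, and 255 nuclei missed the gate only by having exactly 1. With a four-marker sum of exactly 2 there were 260 members, and 433 nuclei missed only by a sum of exactly 1. The limit on Igfn1 with Abi3bp alone kept out 399 nuclei, 31 of them in the mitral and tufted-like cluster, and 57 of the 227 in the 5 libraries clustered alone lay in the Ntng1 Kcnk2 cluster. In those 5 libraries that cluster held 1 of 97 members with exactly 2 Ntng1 UMIs, 56 of 178 members with a four-marker sum of exactly 2 and 303 of 507 members with a sum of 3 or more.

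No gene was called different between Trem2 knockout and wild type in members. UMIs were summed over the members of each library, and edgeR's quasi-likelihood test called 0 of 7582 genes (0.0%) at an adjusted p of 0.05 over all genes tested. At an unadjusted p under 0.05 there were 447 genes, and DESeq2 also called 0. In other glutamatergic nuclei edgeR called 0 of 13911 genes (0.0%), with 631 at an unadjusted p under 0.05. Without knockout replicate 1 the members gave 0 of 7030 genes (0.0%) and 188 at an unadjusted p under 0.05. With no filter on low counts, however, edgeR called 522 of 21456 genes (2.43%) in members, all of them higher in knockout. Of these 522 genes, 268 were in the filtered fit, where none was called, and 68 had UMIs in knockout replicate 1 alone. The cause of this change was not tested.

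The 10 named genes with the smallest p all had groups that did not overlap, as did 720 of the 7582 genes tested (9.50%), from which these 10 were chosen by p, and edgeR called 0.0%. Pitpnb, a phosphatidylinositol transfer protein, had 11.0, 9.92 and 13.0 CPM (scaled by the trimmed mean of M values, TMM) in wild-type members and 64.1, 30.7 and 48.1 CPM in knockout members. The lowest knockout library lay above the highest wild-type one, and its log2 fold change of 2.09 (SE 0.44) had an adjusted p of 0.718 by edgeR. Behind these values were 3, 4 and 11 UMIs of wild-type members and 215, 8 and 37 UMIs of knockout members.

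Ankrd49 was the gene of the 10 that was lower in knockout. Its levels were 33.1, 34.7 and 34.2 CPM in wild-type members and 7.75, 11.5 and 16.9 CPM in knockout members, a log2 fold change of -1.57 (SE 0.45, edgeR adjusted p = 0.718). The wild-type libraries were close together and all above the knockout ones. Traf3, an adaptor of immune receptor signalling, had 3.68, 4.96 and 7.08 CPM in wild-type members and 74.8, 26.9 and 16.9 CPM in knockout members, with knockout replicate 1 highest.

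The other 7 genes were higher in knockout in the same way. Kpna3, an importin of the nuclear pore route, had 33.1, 29.8 and 44.9 CPM in wild-type members and 146, 84.5 and 75.3 CPM in knockout members, the best measured of the 10 with 9 to 491 UMIs a library. Tbc1d15 acts on Rab GTPases, Tex2 at membrane contact sites, Vps45 in vesicle fusion, Glce in heparan sulfate synthesis, Supt3 in a transcription coactivator complex and Fnip2 with folliculin. The log2 fold change of Kpna3 was 1.501, and those of the other 6 ran from 1.62 for Glce to 3.05 for Supt3, and edgeR gave each an adjusted p of 0.718. With no filter on low counts, edgeR called 6 of the 10: Pitpnb (adjusted p = 0.0225), Traf3 (0.00397), Vps45 (0.0494), Supt3 (0.000658), Fnip2 (0.00968) and Tex2 (0.0116). The 10 had been picked by p in these same data, and that fit called 522 of all 21456 genes (2.43%). The highest knockout value was that of knockout replicate 1 for 6 of these other 7 genes, Kpna3 included, and that of knockout replicate 3 for Tbc1d15. In other glutamatergic nuclei each of the 10 had a log2 fold change of the same sign as in members. It ran from 0.68 for Tbc1d15 to 1.89 for Fnip2, and was -0.46 for Ankrd49.

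**Figure D4:**
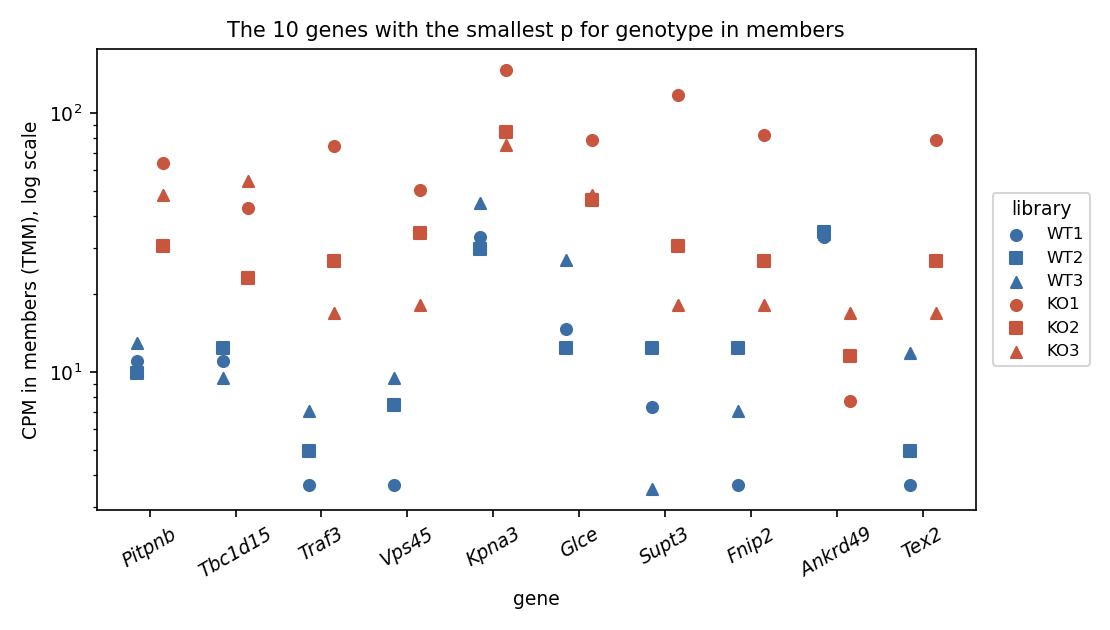
CPM in members by library (y axis, log scale, TMM-scaled) for the 10 named genes with the smallest p for genotype (x axis); blue marks wild type, red knockout, and the shape the replicate. The groups do not overlap for any of the 10, and edgeR's adjusted p, with its filter on low counts, was 0.718 for each.

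Pathway lists showed how far 1 library set the values. Of 17 glutamate receptor genes tested in members, 16 were at a higher level in knockout. Their median log2 fold change was 1.33 against 0.09 over all genes tested, and edgeR called none with its filter on low counts. In other glutamatergic nuclei 21 of 24 were higher, with a median of 1.11. With no filter edgeR called 7 of 24 in members, Grid1 and Grik2 among them, against 522 of all 21456 genes (2.43%). Without knockout replicate 1, 8 of the 17 were higher and the median was -0.05, against 0.04 over all genes. Grid1, a delta-type glutamate receptor, had 22.1, 34.7 and 46.0 CPM in wild-type members and 1001, 19.2 and 54.6 CPM in knockout members. The high value is that of knockout replicate 1, and the other 2 knockout libraries spanned the wild-type range.

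Potassium channels known from mitral cells and inhibitory receptors gave the same picture. Of 20 potassium channel genes, 14 were at a higher level in knockout with a median of 1.29, and without knockout replicate 1 the count was 10 and the median 0.00. Other glutamatergic nuclei had 14 of 21 higher in the 6 libraries, with a median of 1.20. Kcnq5, a channel of the slow M current, had 69.8, 57.0 and 55.5 CPM in wild-type members and 3308, 57.6 and 62.3 CPM in knockout members. Of 13 GABA and glycine receptor genes, 10 were higher with a median of 1.09, and 5 were higher with a median of -0.09 without that library. For this list, other glutamatergic nuclei had 14 of 17 higher in the 6 libraries, with a median of 0.90. Gabra3 had 22.1, 24.8 and 15.4 CPM in wild-type members and 154, 42.2 and 16.9 CPM in knockout members.

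Ntng1's own pathway was in part affected by that library. Lrrc4c, the netrin-G1 ligand, had 162, 196 and 250 CPM in wild-type members and 4514, 319 and 201 CPM in knockout members, with a log2 fold change of 3.05 (SE 1.11, edgeR adjusted p = 0.718). Of the 4 genes tested of the list of netrin-G proteins and ligands, Lrrc4c and Lrrc4 were at a higher level and Lrrc4b and Ntng1 at a lower one, and the level of Ntng1 was used by the gate. All 3 of the R-spondin and Wnt receptor genes tested (of 21 listed; Rspo3, a gate gene, is 1 of them) were at a lower level in knockout, with a median of -0.26. Fzd3, a Wnt receptor of axon growth, had 88.2, 44.6 and 59.0 CPM in wild-type members and 54.5, 38.4 and 62.3 CPM in knockout members, groups that overlap.

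Glutamate release and reuptake genes split evenly, 11 higher and 10 lower of 21 tested, with a median of 0.03. Rims1 had 404, 498 and 726 CPM in wild-type members and 4201, 288 and 465 CPM in knockout members, so that its log2 fold change of 1.61 became -0.52 without knockout replicate 1. Of 4 neuropeptide genes tested (13 listed), all 4 were at a lower level in knockout with a median of -0.49, and without that library 5 of 6 were lower with a median of -0.09. Of 13 tested in other glutamatergic nuclei, 10 were lower in the 6 libraries with a median of -0.47. Sst, a peptide of interneurons, had 22.1, 44.6 and 40.1 CPM in wild-type members and 14.3, 11.5 and 23.4 CPM in knockout members.

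A few lists moved the other way when that library was left out. Nuclear genes of oxidative phosphorylation, the mitochondrial energy pathway, had a median of 0.06 over 20 genes in 6 libraries, with 11 higher, and 0.54 over 21 genes in 5 libraries, with 18 higher. Their summed level in members was 1919, 1767 and 1111 CPM in wild-type members and 648, 982 and 3207 CPM in knockout members, so knockout replicate 3 was highest and the other knockout libraries lowest. Other glutamatergic nuclei of the same libraries had 1979, 1829 and 1019 CPM in the wild-type mice and 731, 1143 and 2979 CPM in the knockout mice. Chaperones had medians of 0.10 and 0.41 with 8 of 10 higher in both fits. Cholesterol synthesis genes had 11 of 17 higher with a median of 0.14, and 13 of 16 with a median of 0.26 without that library. Activity genes had 5 of 11 higher with a median of -0.23, and 10 of 11 with a median of 0.14. Over all genes tested in members, 4297 of 7582 were higher in 6 libraries and 3798 of 7030 without that library. Without it, other glutamatergic nuclei had 20 of 21 oxidative phosphorylation genes higher, 15 of 19 cholesterol synthesis genes and 7 of 11 chaperones. Activity genes there were higher for 3 of 12, with a median of -0.31.

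Amyloid handling genes, the group closest to the transgene, were 7 higher and 4 lower of 11, with a median of 0.13. App had 514, 516 and 537 CPM in wild-type members and 768, 453 and 513 CPM in knockout members, and its log2 fold change of 0.15 (SE 0.41, edgeR adjusted p = 0.945) became -0.11 without knockout replicate 1. Apoe, mainly a glial gene, had 206, 174 and 122 CPM in wild-type members and 97.8, 99.8 and 214 CPM in knockout members, groups that overlap. In other glutamatergic nuclei the list median had the opposite sign for R-spondin and Wnt receptors (0.14), amyloid handling (-0.10) and oxidative phosphorylation (-0.09). Glutamate release and reuptake (-0.03) and chaperones (-0.03) also had the opposite sign there. The other lists had the same sign in both classes in the fits of 6 libraries. With the filter on low counts, none of the 12 lists held a gene called by edgeR in members. With no filter, 16 of 201 list genes were called, against 522 of all 21456 genes (2.43%). These 16 came from 4 lists: 7 glutamate receptors, 5 potassium channels (Kcnc2, Kcnd2, Kcnd3, Kcnq5 and Kcnt2), Gabra3 and Gabrg3, and Ntng2 and Lrrc4c.

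**Figure D5:**
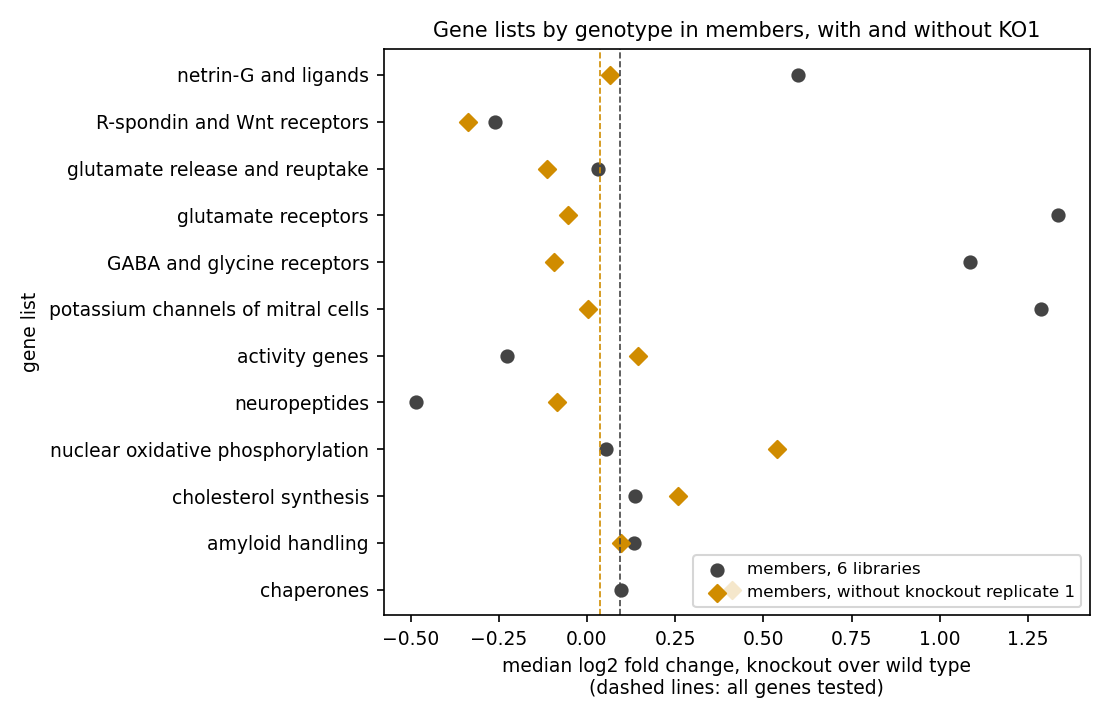
Median log2 fold change of each gene list in members, knockout over wild type (x axis), in the fit of all 6 libraries (grey circles) and in that without knockout replicate 1 (orange diamonds), with dashed lines for all genes tested (0.09 and 0.04). The glutamate receptor list moves from 1.33 to -0.05.

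The genotype effect in members differed from that in other glutamatergic nuclei for 2 of 14625 genes (0.0137%) by edgeR's quasi-likelihood test of the class by genotype term, with the mouse as a block. Rxfp1, the receptor of the hormone relaxin, had a difference of 2.71 (SE 0.53, adjusted p = 0.0170, edgeR) on the log2 scale. It had 1, 1 and 4 UMIs in wild-type members, or 3.52, 2.54 and 4.56 CPM. Knockout members had 124, 9 and 2 UMIs, or 24.3, 34.6 and 2.92 CPM. In other glutamatergic nuclei it had 33.5, 25.8 and 29.7 CPM in the wild-type mice and 24.6, 78.8 and 15.2 CPM in the knockout mice. Knockout replicates 1 and 2 were above the wild-type members and knockout replicate 3 was within their range.

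The share of members in a cluster led by this gene was raised in 1 library only, knockout replicate 2. Rxfp1 led 1 of the 24 glutamatergic clusters, which held 4.48%, 4.03% and 4.53% of members in the wild-type mice, 18.5% in knockout replicate 2 and 3.27% in knockout replicate 3. Knockout replicate 1, whose members held 124 Rxfp1 UMIs, was not part of this clustering. The part of this cluster in the Rxfp1 difference was not tested. Gadd45g, a stress and activity-induced gene of DNA repair and demethylation, had a difference of -1.49 (SE 0.30, adjusted p = 0.0194, edgeR). Its level was 24.6, 48.3 and 105.9 CPM in wild-type members and 5.68, 0 and 64.3 CPM in knockout members, against 13.8, 17.5 and 17.9 and 4.39, 8.28 and 38.8 CPM in other glutamatergic nuclei. Without knockout replicate 1, edgeR called 0 of 13246 genes (0.0%), with 385 at an unadjusted p under 0.05. Without wild-type replicate 2 it also called 0, with 538 at an unadjusted p under 0.05, and with no filter on low counts it called 3 of 25947 genes (0.0116%).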

How the data were processed

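The deposited values are raw UMI counts per gene and barcode, in 1 matrix per mouse, limited to barcodes the authors' software called. Per the file headers, Cell Ranger made the counts, in version 7.0.0 for knockout replicate 1 and 6.1.2 otherwise. The submitters' processing notes name mm10 and Seurat. No source used here names the annotation release or says whether introns were counted. Replicates are numbered in accession order, which pairs no samples. The members, gene lists and tests were chosen with earlier results of these data known.

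Kept barcodes had 500 genes or more and no more than 5% mitochondrial UMIs. Doublets were called with Scrublet per library (expected rate 6%) and kept in the main analysis: 57 of 1109 members (5.14%) were called. Counts were log-normalized and scaled within library, and 2000 variable genes outside the gate were used. Leiden clusters (resolution 1) were built on 30 principal components with 15 neighbours (scanpy 1.11.5, leidenalg 0.10.2). Other glutamatergic nuclei met the same Slc17a7, Slc17a6, Gad1 and Gad2 limits without being members. Summed counts per library were tested with edgeR 4.0.16 (quasi-likelihood, TMM, filterByExpr, Benjamini-Hochberg) and, as an alternative, DESeq2 1.42.0. CPM in the genotype results is TMM-scaled, except for Rxfp1, Gadd45g and the summed level of a list. For these, and elsewhere, CPM is scaled to the total UMIs of the class in a library. Shares were compared by exact permutation over mice. The edgeR fit of members was also run on simulated sums, and its recovery of changed genes is not reported here. Named genes were the gate's genes, the 20 with the largest mean log2 ratio among genes at 100 CPM or more and above 0 in every library, and the 10 smallest genotype p-values (unnamed loci, mitochondrial and sex-linked genes left out), with up to 4 per list. Median UMIs per tested gene in members ranged from 12 to 177 by library. Coordinates are those of GENCODE on mm10. Binomial intervals are exact at 95%. Nothing says whether mice shared litters.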

Additional observations from a re-analysis of the deposited data

Results flagged for a closer look

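The genotype effect in members differed from that in other glutamatergic nuclei for Rxfp1 by 2.71 on the log2 scale (SE 0.53, adjusted p = 0.0170, edgeR), a difference that drew attention because the test of the difference itself passed its threshold. The wild-type members held 1, 1 and 4 UMIs of it, and the knockout members 124, 9 and 2. Its call ended without any 1 of 3 libraries. Without knockout replicate 1 the difference was 1.46 (adjusted p = 0.9996, edgeR), without wild-type replicate 2 it was 2.62 (adjusted p = 0.0511) and without wild-type replicate 3 it was 3.08 (adjusted p = 0.136).

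Gadd45g had a difference of -1.49 (SE 0.30, adjusted p = 0.0194, edgeR) and drew attention for the same reason. The wild-type members held 7, 19 and 93 UMIs, and the knockout members 29, 0 and 44. Its call ended without any 1 of 4 libraries. Without wild-type replicate 3 the difference was -0.71, and without knockout replicate 1 it was -1.43, with adjusted p = 1.0 and 0.9996 by edgeR. Without wild-type replicate 2 it was -1.64 (adjusted p = 0.0511, edgeR), and without knockout replicate 3 it was -1.63 (adjusted p = 0.0992).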

How the results depend on the processing

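The difference in the share of members (knockout minus wild type, 0.420 percentage points) changed sign under 5 settings: -0.612 after thinning to 2000 UMIs, -0.957 for members of the cluster that holds most of them (which held 8 of the 424 members of knockout replicate 1, a library that formed clusters of its own), -0.715 for the Ntng1 Kcnk2 cluster of 5 libraries (chosen after seeing the data), and, when 1 mouse was left out at a time, values from -0.581 to 1.59. No exact p fell below 0.4. The count of genes called in members stayed 0 under every setting run except no filter on low counts (522), where the cause was not tested. The count for the class by genotype term, 2, ran from 0 to 19 when 1 mouse was left out: 0 without wild-type replicate 2 or knockout replicate 1, 7 without wild-type replicate 1, and 4 and 19 without knockout replicates 2 and 3. It was 6 without wild-type replicate 1 and knockout replicate 2 (chosen after seeing the data). The largest cluster held 41.2% of members over all nuclei and 52.4% over 5 libraries.

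With libraries left out, the log2 fold change ran from -0.52 to 2.10 for Rims1, from -0.11 to 0.29 for App, from -0.50 to 0.14 for Fzd3 and from -0.78 to 0.065 for Apoe. That is a change of sign without knockout replicate 1 for Rims1 and App, and without wild-type replicate 1 and knockout replicate 2 for Fzd3 and Apoe. Apoe stood at 0.016 after thinning. Members of the top cluster alone could not be fitted for genotype, since only 1 knockout library held 10 or more. No paired analysis was possible because the labels carry no replicate numbers. Counts were low in 2 libraries: wild-type replicate 1 and knockout replicate 2 had medians of 13 and 12 UMIs per tested gene in members.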
